A study of Homo sapiens with 2 samples.

Results

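The p53 target genes followed here were measured in single human embryonic stem cells, and they are CDKN1A, MDM2, GDF15, SESN1, SESN2, BBC3, FAS, ZMAT3 and RRM2B. They were taken by gene symbol and are 9 of the 33538 genes counted. All 9 had counts in both libraries of the series. The cells were of the established embryonic stem cell line H1, and both libraries had received 50 ng/ml of the growth factor BMP4 for 48 h before single-cell RNA sequencing. The libraries are called WT and GATA3 KO after their labels. The first came from H1 itself, and the second from 1 clone in which Cas9 had been used against GATA3, a transcription factor gene, and that clone descends from an H1 line with a doxycycline-inducible Cas9 cassette at AAVS1. Genotype, clone and cassette therefore cannot be told apart between the libraries. For WT the growth protocol mentions 1 h of BMP4, while its title and recorded duration give 48 h, which was used.

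p53 is kept at a low level by MDM2, an E3 ubiquitin ligase that marks it for destruction, and MDM2 is itself switched on by p53, which closes a negative feedback loop. When DNA breaks, replication stress or other insults release p53 from this control, it binds a consensus made of a pair of decamers and activates genes for cell-cycle arrest, DNA repair, metabolic adjustment and apoptosis. Human pluripotent stem cells are known for a short G1 phase and for a low threshold to p53-dependent death.

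A search for that consensus was made around the RefSeq transcription starts of the members, because the sites are the sequence feature by which these genes are grouped. Windows reached 3000 bases to either side of a start, and 2 adjacent half-sites of 10 bases were accepted with a spacer of at most 1 base, an intact core in both and at most 2 mismatches to the p53 half-site consensus in all. The consensus reads the same on both strands, so both were covered. Of the 8 members with a RefSeq start in the table used, 4 had such a pair, and each had 1. Over all 35116 starts searched, 2009 (5.72%) had a pair and 66 (0.188%) had a pair without mismatch. These shares are per start, whereas the members were counted per gene and had 16 starts among them. The 2 are therefore not on the same footing, and a share per gene over all genes is not given. The 4 sequences are given on the strand of the gene, 5′ to 3′, with the core bases of each half-site in capitals.
CDKN1A: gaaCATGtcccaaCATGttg
FAS: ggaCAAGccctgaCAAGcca
GDF15: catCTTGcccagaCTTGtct
ZMAT3: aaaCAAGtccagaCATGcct
The ZMAT3 pair matched without a mismatch, and the other 3 had 2 mismatches each. In GRCh38 the CDKN1A pair lies at chr6:36676449-36676468 on the plus strand, at -2256 bases from the nearest RefSeq start. The annotated gene begins inside the pair, at 36676460. An exon of 1 of 8 GENCODE transcripts of the gene thus overlaps the pair only in part. The FAS pair lies at chr10:88991309-88991328 (plus strand), at -113 bases from a RefSeq start. It overlaps 46 of 61 FAS transcripts, 8 of which have an exon that overlaps it at least in part. The GDF15 pair at chr19:18385308-18385327 (plus strand) is intronic in 3 of 5 transcripts, and the ZMAT3 pair at chr3:179070188-179070207 (minus strand) is intronic in 4 of 4. A match of this kind is a description of the letters and does not show that p53 was bound. No match in SESN1, SESN2, MDM2 or BBC3 says only that these letters were not found in the windows searched. RRM2B had no entry in the table.

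The WT library held 3802 cells and 200569649 unique molecular identifiers (UMIs, counts of single transcript molecules). The GATA3 KO library held 6221 cells and 284280464 UMIs. After cells with more than 7500 detected genes or more than 25% mitochondrial UMIs were left out, 2519 and 4450 cells remained, with medians of 44415 and 43131.5 UMIs per cell. In all 8 barcodes, 5 of them among kept cells, occurred in both libraries. The GATA3 transcript, counted at its 3′ end, stood at 12.7 CPM (UMIs per 1000000) in the WT library and 10.9 CPM in the GATA3 KO library, so its level does not check the labels, and every direction below rests on them. Each group is 1 library. No difference has a replicate check, no test was made, and all intervals are 95% intervals that cover counting error only.

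Across the pair of libraries the 9 genes did not shift as a block. SESN2, BBC3 and FAS had higher levels in the GATA3 KO library, by 0.58 to 0.94 on the log2 scale, and CDKN1A and RRM2B had lower ones. MDM2, SESN1, GDF15 and ZMAT3 differed by less than 0.2 on the log2 scale. Ratios are log2 of CPM + 1 with the GATA3 KO library as numerator and the WT library as denominator, a scale that understates changes of genes with few counts.

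CDKN1A encodes p21, the inhibitor of cyclin-dependent kinases through which p53 halts the cell cycle. It was counted at 9.79 CPM (9.19 to 10.4) in the WT library and 7.88 CPM (7.47 to 8.31) in the GATA3 KO library. The log2 ratio was -0.28 (-0.39 to -0.17), a lower level with counting intervals that did not meet. MDM2, the feedback ligase, had 42.7 and 39.5 CPM and a log2 ratio of -0.11 (-0.17 to -0.06). The arrest gene and the feedback gene were thus both on the lower side, by different amounts.

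The apoptotic members were on the other side. BBC3, which encodes the BH3-only protein PUMA, had 18.7 CPM in the WT library and 28.4 CPM in the GATA3 KO library, a log2 ratio of 0.58 (0.50 to 0.65). FAS, the death receptor for FAS ligand, had 1.15 CPM (0.95 to 1.39) and 3.14 CPM (2.88 to 3.41). Its log2 ratio of 0.94 (0.77 to 1.11) was the highest of the 9. FAS is also the member with the fewest counts and overlaps STAMBPL1 on the same strand and ACTA2 on the other, so a part of its UMIs could belong to another gene. MDM2 likewise overlaps an annotated gene on its own strand.

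The sestrins, which restrain mTORC1 under stress, parted from each other. SESN2, which is also known as a target of the stress factor ATF4, had 11.1 CPM (10.5 to 11.8) in the WT library and 19.2 CPM (18.6 to 19.9) in the GATA3 KO library, with a log2 ratio of 0.74 (0.65 to 0.83). SESN1 had 15.9 and 14.6 CPM and a log2 ratio of -0.11 (-0.20 to -0.03). Of 2 paralogs in the list, 1 was thus higher and the other close to equal.

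GDF15, a secreted stress cytokine of the TGF-β family, had 3.57 and 4.17 CPM (log2 ratio 0.18, 0.03 to 0.32). ZMAT3, an RNA-binding zinc finger protein, had 17.6 and 19.0 CPM (0.11, 0.03 to 0.19). RRM2B, the p53-inducible small subunit of ribonucleotide reductase that supplies nucleotides for repair, had 38.8 and 32.8 CPM (-0.23, -0.29 to -0.18). None of these 3 was past 1.5-fold.

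**Figure D1:**
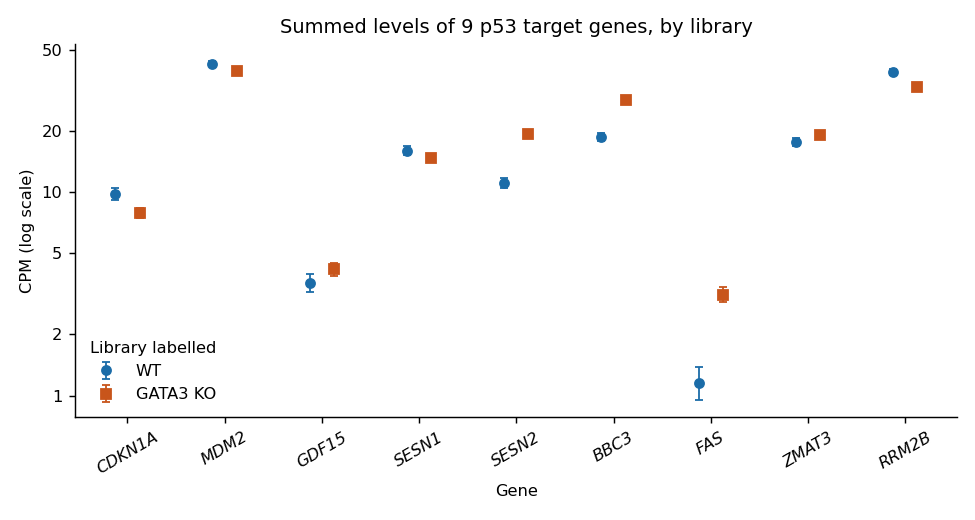
Summed level of each of the 9 genes in CPM (log axis) in the WT library (circles) and the GATA3 KO library (squares), 1 library each; bars are exact Poisson 95% intervals, which in many cases are smaller than the symbol. SESN2, BBC3 and FAS lie higher in the GATA3 KO library, and CDKN1A and RRM2B lower.

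At the minimum of 20 CPM in the higher library, 3 members entered and 0 were past 1.5-fold, against 13.5% of 5516 genes higher and 7.87% lower. At 5 CPM it was 1 of 7 (SESN2) higher and 0 lower, against 14.3% and 7.83% of 9979 genes. With a minimum of 1 CPM, which was set after the data were seen so that all 9 entered, SESN2 and FAS were past 1.5-fold higher and 0 members were lower, against 12.7% of 13510 genes higher and 8.09% lower. BBC3 was just short of the limit, at 1.49-fold on the scale of CPM + 1. The median log2 ratio was 0.11 over the members and 0.07 over all genes. With a pseudocount of 0.1 CPM, over all deposited cells or as a mean of per-cell CPM, BBC3 was past the limit too, which made 3 of 9. A count of 2 of 9 members is close to the background.

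**Figure D2:**
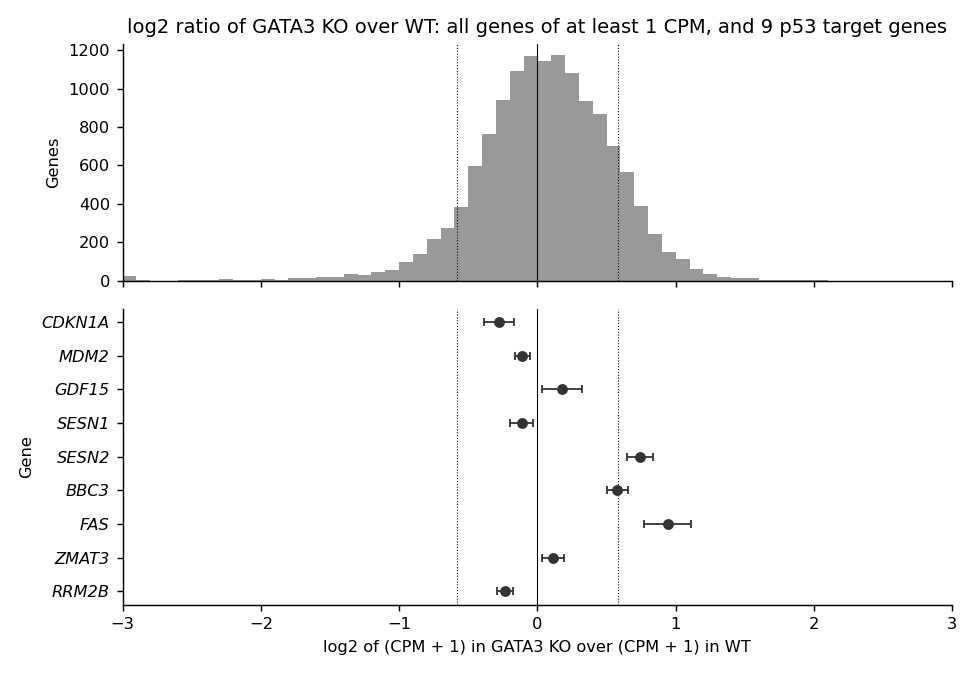
Upper panel, number of genes (of 13510 with at least 1 CPM) by log2 ratio of the GATA3 KO library over the WT library in bins of 0.1, with values beyond -3 collected in the first bar; lower panel, the same ratio for the 9 genes with exact binomial 95% counting intervals. Dotted lines mark 1.5-fold, and of the 9 genes SESN2 and FAS lie beyond the right one.

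A second list of 32 further p53 targets was spread in the same way. Past 1.5-fold, 6 were higher and 1 was lower, and the median log2 ratio was 0.04. Those with at least 20 CPM were PHLDA3, an AKT inhibitor (18.7 and 39.4 CPM, log2 ratio 1.03), NINJ1, an adhesion protein (18.6 and 36.1 CPM, 0.92), FDXR, a mitochondrial reductase (25.03 and 41.3 CPM, 0.70), TP53I3 (38.6 and 59.7 CPM, 0.62) and PERP, a desmosomal and apoptotic protein (167 and 95.5 CPM, -0.80). The other two higher, named after their values were seen, were TRIM22 (9.90 and 17.5 CPM, 0.76) and PIDD1 (5.02 and 8.36 CPM, 0.64). MDM4, the partner of MDM2, had 38.6 and 33.6 CPM (log2 ratio -0.20). Among 12 p53 regulators, 9 with at least 1 CPM, only TP53BP1, a DNA break adaptor, was past 1.5-fold (19.0 and 31.0 CPM, 0.68). The p53 regulators and the targets thus held genes on both sides.

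Neighbours of single members in their pathways moved in several directions. In the BCL2 family, to which PUMA binds, 1 of 12 genes was past 1.5-fold. This was BCL2L1, whose main product protects from apoptosis, with 11.1 and 34.5 CPM (log2 ratio 1.56). The 14 genes of the ATF4 stress list, to which SESN2 is related, had a median log2 ratio of 0.33, with 4 past 1.5-fold higher and 1 lower. Of these, ATF4 had 99.7 and 180 CPM (0.84) and PHGDH, an enzyme of serine synthesis, 349 and 543 CPM (0.64), while CEBPB had 43.2 and 24.7 CPM (-0.78). TRIB3 (3.03 and 5.58 CPM, 0.71) and CHAC1 (5.26 and 12.4 CPM, 1.10), named after their values were seen, were the remaining higher ones. The 3 measured CDK inhibitors besides CDKN1A, and the 2 other ribonucleotide reductase genes, were within 1.5-fold.

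Within each library the members were detected in few cells at a time. When every cell was thinned at random to 10000 UMIs, which left 2173 and 4038 cells, CDKN1A was seen in 8.10% (6.99 to 9.33) and 6.54% (5.79 to 7.34) of cells, and MDM2 in 31.8% and 30.3%. SESN2 was seen in 11.2% (9.89 to 12.6) and 16.1% (15.0 to 17.3), BBC3 in 15.6% and 23.5%, and FAS in 1.43% and 2.80%. The shares followed the order of the levels between the libraries for these genes, whereas GDF15 was seen in 2.72% and 2.70% of cells although its CPM differed. Without thinning the shares were 19.2% and 15.9% for CDKN1A, 31.4% and 43.9% for SESN2 and 4.17% and 10.4% for FAS. No cell type that should lack these genes is present in the series, so the share that free RNA alone would give was not measured.

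GDF15 and CDKN1A counts were concentrated in a small part of the cells. The 1% of cells with the most GDF15 UMIs (26 and 45 cells) held 44.4% and 49.2% of all its UMIs, with up to 35 and 46 in 1 cell. For CDKN1A the corresponding shares were 19.0% and 21.2%, with up to 11 and 14 in 1 cell. RRM2B had the lowest shares, 6.75% and 7.05%. A gene with few UMIs has a high share by this measure whatever its spread, as FAS does (31.3% and 19.5%, with at most 2 and 4 UMIs in 1 cell). The variance of the UMIs per cell was 6.24 and 8.35 times the mean for GDF15, 3.03 and 3.27 times for MDM2, 2.92 and 2.88 times for CDKN1A and 1.13 and 1.26 times for FAS. MDM2 reached 32 and 38 UMIs in 1 cell. The counting intervals treat UMIs as independent, so they are narrower than the spread between cells would give, most of all for GDF15.

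These cells were examined for the other members. Cells were grouped by CDKN1A UMIs at the thinned depth, and the other genes were then measured from all UMIs of those cells. In the WT library, 1997 cells had 0 CDKN1A UMIs, 169 had 1 to 2 and 7 had 3 or more. In the GATA3 KO library the numbers were 3774, 256 and 8. CDKN1A itself, taken from the UMIs that the thinning had set aside, stood at 6.64, 40.2 and 119 CPM in the first library and 5.52, 39.5 and 72.8 CPM in the second, so the groups differed in molecules that had not been used to form them.

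Through these groups MDM2 stood at 38.9, 86.9 and 139 CPM in the WT library, and at 35.7, 87.0 and 166 CPM in the GATA3 KO library. GDF15 stood at 2.52, 14.3 and 21.4 CPM in the first and at 2.85, 22.6 and 22.5 CPM in the second. ZMAT3 had 16.2, 33.7 and 49.9 CPM and 17.0, 46.6 and 87.4 CPM. For all 3 the cells without CDKN1A were lowest in either library.

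The same order held for BBC3 (17.1, 37.4 and 39.2 CPM; 26.1, 57.2 and 101 CPM) and SESN2 (10.4, 19.3 and 28.5 CPM; 18.2, 32.9 and 53.5 CPM). SESN1 had 14.5, 33.0 and 42.7 CPM and 13.2, 36.1 and 31.0 CPM. RRM2B had the shallowest slope, with 37.9, 51.2 and 64.1 CPM and 31.5, 51.3 and 53.5 CPM. FAS was at 1.05, 2.36 and 0 CPM in the WT library, where the 7 cells with 3 or more CDKN1A UMIs gave no FAS UMI and a counting limit of 13.1 CPM, and at 3.02, 5.17 and 8.45 CPM in the GATA3 KO library. The groups with 3 or more CDKN1A UMIs hold so few cells that directions turned with the random draw. With another seed, which gave 5 and 11 such cells, the log2 ratio against cells with 0 went in the WT library from 1.37 to -0.87 for SESN2 and from 0.74 to -1.75 for RRM2B, and in the GATA3 KO library it was 0.00 for SESN2.

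Between cells with 3 or more CDKN1A UMIs and cells with 0, 7 of the 8 other members were past 1.5-fold higher in the WT library, all but FAS, against 16.6% of 13104 genes. In the GATA3 KO library it was 8 of 8, against 12.9% of 13037 genes. With the other seed the counts were 5 and 7. With 2 or more CDKN1A UMIs (46 and 49 cells) the counts were 7 and 8, against 5.65% and 2.98% of all genes. With all cells that had 1 or more CDKN1A UMIs as the upper group (176 and 264 cells), a setting added after the data were seen, the counts were again 7 of 8, now all but RRM2B, and 8 of 8. At that setting only 1.14% and 0.813% of all genes were past 1.5-fold higher. The median log2 ratio of the 8 was 1.06 and 1.22, against -0.02 and -0.03 over all genes. By size of the ratio among 13105 and 13038 genes, CDKN1A included, GDF15 came 2nd in both libraries, ZMAT3 20th and 4th, MDM2 11th and 9th, SESN1 13th and 7th, BBC3 17th and 13th, SESN2 36th and 31st, FAS 92nd and 82nd and RRM2B 367th and 69th.

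**Figure D3:**
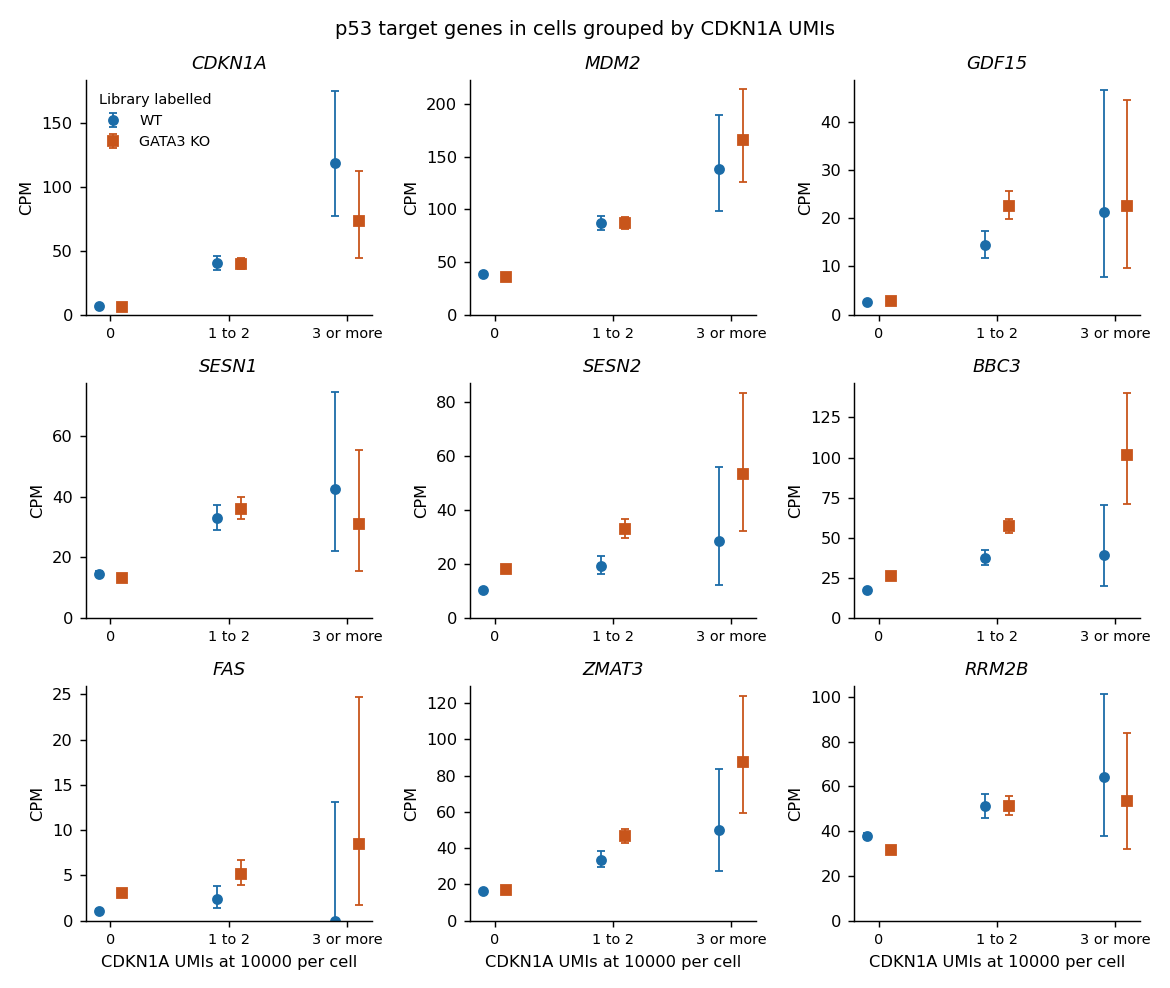
CPM of each gene in cells with 0, 1 to 2, or 3 or more CDKN1A UMIs after thinning to 10000 UMIs, in the WT library (circles; 1997, 169 and 7 cells) and the GATA3 KO library (squares; 3774, 256 and 8 cells), with exact Poisson 95% intervals. CDKN1A is shown from the UMIs left out by thinning; all genes but FAS in the WT library are lowest in cells with 0 CDKN1A UMIs.

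The list of further p53 targets was higher in the same cells. Of 32, 14 in the WT library and 17 in the GATA3 KO library were past 1.5-fold higher in cells with CDKN1A, and 0 were lower. Of all genes, 1.14% and 0.813% were past 1.5-fold higher. All 32 ratios were above 0 in both libraries, with medians of 0.51 and 0.62 against -0.02 and -0.03 over all genes. Some were small, with intervals that included 0, such as TP53I3 in the WT library (0.16, -0.01 to 0.32). PHLDA3 had log2 ratios of 1.12 and 1.25 and GADD45A, which takes part in DNA repair and growth arrest, 0.93 and 1.17. BTG2, an antiproliferative gene picked out after its values were seen because it led the list, had 1.88 and 1.86. The p53 regulators did not share this pattern, with 0 of 9 past 1.5-fold in either direction in both libraries. The 14 ATF4 stress genes had 0 past 1.5-fold in either library at this setting. Of their ratios, 7 were above 0 in the WT library (median -0.003) and 13 in the GATA3 KO library (median 0.25).

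Cells with and without CDKN1A were alike in depth, with medians of 46565 and 47168 UMIs in the WT library and 45589.5 and 44772 in the GATA3 KO library. Their median mitochondrial shares were 11.4% and 11.3%, and 10.8% and 11.1%. They differed in other genes. SOX2, a pluripotency factor, stood at 95.03 CPM in cells with CDKN1A and 154 CPM in cells without in the WT library, and at 282 and 397 CPM in the GATA3 KO library. The G2/M list was at 4466 against 5378 CPM and at 4856 against 5700 CPM. When the expected level was taken from CDKN1A-free cells of the same marker groups or of the same cell-cycle quartiles, the median log2 ratio of the 8 members was 1.04 and 1.03 in the WT library and 1.22 and 1.17 in the GATA3 KO library. Without the shared barcodes it was 1.08 and 1.19.

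Other members as the sorting gene gave medians of the same sign. When cells were grouped by having a UMI of each member in turn, the median log2 ratio of the 8 others was between 0.38 (RRM2B) and 1.06 (CDKN1A) in the WT library and between 0.48 (SESN2) and 1.22 (CDKN1A) in the GATA3 KO library. GDF15 as the sorting gene gave 1.06 and 1.18 from 59 and 109 cells. MDM2, seen in many more cells, gave 0.54 and 0.69. With FAS as the sorting gene in the WT library (31 cells), only 2 of 8 intervals lay above 0, and BBC3 had -0.37 (-1.04 to 0.25). Each other sorting gene there had 7 or 8 of 8 above 0, and in the GATA3 KO library all 9 had 8. The values over all genes are given only for CDKN1A as the sorting gene. The share of all genes with an interval above 0 was not taken, so these counts are not read as particular to the members.

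Correlations across single cells were weak, as is usual for counts this sparse. Pearson's r of log2(UMIs + 1) with CDKN1A over 2173 cells of the WT library was 0.19 for MDM2, 0.16 for GDF15, 0.14 for SESN2, 0.13 for SESN1, 0.10 for ZMAT3, 0.09 for BBC3, 0.06 for RRM2B and 0.02 for FAS. Over 4038 cells of the GATA3 KO library it was 0.20 for ZMAT3, 0.16 for GDF15, 0.14 for SESN1, 0.13 for MDM2, 0.13 for BBC3, 0.08 for RRM2B, 0.06 for SESN2 and 0.01 for FAS. All cells of a library share its preparation, and the order of the members moved with the random draw used for thinning, so it is not read further. The middle 95% of the 4598 genes with at least 20 CPM in both libraries lay between -0.06 and 0.05 in the first library and between -0.04 and 0.04 in the second. Of the members correlated with CDKN1A, only MDM2 and RRM2B reach that minimum. Among 13104 and 13037 genes with at least 1 CPM, FAS came 2576th and 2919th and RRM2B 208th and 23rd in this draw. The other members came 58th or higher in both libraries. Among the 36 pairs of members, r was above 0 in 30 and 36, with medians of 0.05 and 0.08. The share over pairs of other genes was not taken, so these counts are not read further.

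The genes whose counts were most like those of CDKN1A in both libraries, by the smaller of the 2 correlations among those 4598 genes, were NEAT1 (0.18 and 0.15), MDM2, RPS27L (0.12 and 0.13), GADD45A (0.13 and 0.12), HIST1H4C (0.16 and 0.11) and TRAF4 (0.11 and 0.11). The minimum of 20 CPM leaves out GDF15 and SESN1, whose correlations with CDKN1A were of the same size or higher. NEAT1 is a long non-coding RNA of nuclear paraspeckles, and RPS27L encodes a ribosomal protein-like factor. HIST1H4C is a histone gene of S phase. MDM2, RPS27L and GADD45A stand on the 2 p53 target lists used here. At the other end were CKS2 (-0.10 and -0.10), a cofactor of mitotic CDKs, SOX2 (-0.09 and -0.11), HNRNPDL (-0.08 and -0.09), the chaperone HSPA8 (-0.10 and -0.08), UBE2S (-0.08 and -0.09), an enzyme of the anaphase-promoting complex, and SRSF7 (-0.08 and -0.08), a splicing factor.

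CDKN1A was lowest in the cells with the highest summed share of S-phase and G2/M transcripts. Cells were ranked by the share of their UMIs in S-phase and G2/M genes and divided into quartiles. These are ranges of a score and not phases. The lowest and highest quartiles differed mainly in the G2/M list. It went from 3626 to 7543 CPM in the WT library and from 3783 to 8023 CPM in the GATA3 KO library. The S-phase list stood at 3063 and 3071 CPM in the first library and at 3648 and 3943 CPM in the second. CDKN1A stood at 16.8, 10.9, 8.86 and 3.52 CPM from the lowest to the highest quartile in the WT library, and at 13.1, 10.5, 5.39 and 3.60 CPM in the GATA3 KO library. GDF15 stood at 7.69, 2.09, 3.57 and 1.19 CPM in the first library and at 9.90, 3.68, 2.37 and 1.55 CPM in the second. Between the highest and the lowest quartile the log2 ratio was -1.98 and -1.62 for CDKN1A and -1.99 and -2.09 for GDF15.

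BBC3 (21.6 to 13.5 CPM and 33.9 to 22.2 CPM) and SESN2 (14.9 to 8.90 CPM and 22.7 to 15.1 CPM) had smaller differences of the same sign. MDM2 had 51.2 and 38.1 CPM and 42.8 and 35.2 CPM in the lowest and highest quartiles. RRM2B had no such decline, with 38.5 and 38.2 CPM in the WT library and 29.4 and 35.6 CPM in the GATA3 KO library. Past 1.5-fold lower in the highest quartile were 4 members in the WT library (CDKN1A, GDF15, SESN2 and BBC3) and 3 in the GATA3 KO library (CDKN1A, GDF15 and BBC3), against 1.42% and 0.734% of all genes, and 0 were higher, against 4% and 2.57%. The cell-cycle quartiles also differed in depth, from medians of 40386 to 54422.5 UMIs and of 38822 to 51456.5 UMIs. Near a cut, within 1% of the range of the score, were 435 of 2173 and 705 of 4038 cells.

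**Figure D4:**
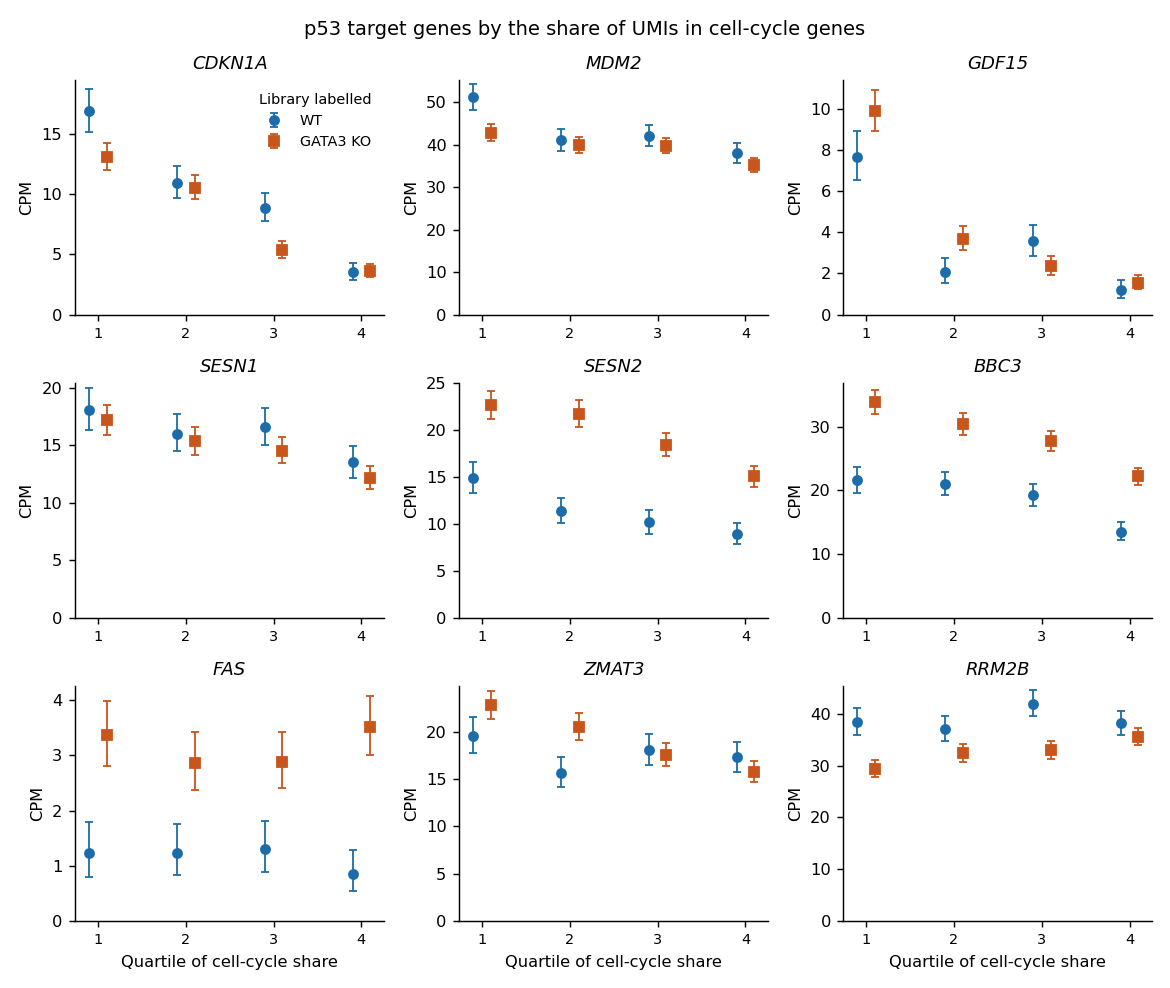
CPM of each gene in quartiles of cells by the share of UMIs in S-phase and G2/M genes (1 lowest, 4 highest) in the WT library (circles, 543 or 544 cells a quartile) and the GATA3 KO library (squares, 1009 or 1010 cells), with exact Poisson 95% intervals. CDKN1A and GDF15 are highest in quartile 1 and lowest in quartile 4 of both libraries, and RRM2B has no such decline.

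The balance of the lists set the members apart as well. In quartiles of the G2/M list over the S-phase list, CDKN1A went from 18.0 to 3.76 CPM and from 14.4 to 4.34 CPM, and BBC3 from 27.4 to 11.1 CPM and from 36.8 to 21.7 CPM. In the WT library 7 members and in the GATA3 KO library 5 were past 1.5-fold lower where G2/M genes dominated, against 1.61% and 1.35% of all genes. ZMAT3 was level, at 17.9 and 17.7 CPM and 18.9 and 17.8 CPM. By the S-phase list alone the sign turned for CDKN1A, which was higher in the highest than in the lowest quartile (log2 ratio 1.11 and 0.40). It turned as well for BBC3 (0.98 and 0.49), MDM2 (0.57 and 0.62), SESN2 (0.58 and 0.33) and SESN1 (0.52 and 0.26). RRM2B had 0.23 and 0.09, and FAS had 0.34 and -0.35. GDF15 (-0.27 and -0.44) and ZMAT3 (-0.15 and -0.22) were below 0 there. In the WT library the intervals of GDF15 (-0.61 to 0.08) and ZMAT3 (-0.33 to 0.03) included 0.

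Relations to lineage markers were taken from cells with 2 or more thinned UMIs of SOX2, of primitive streak markers (MIXL1, EOMES and TBXT) or of extraembryonic markers (TFAP2A, GATA3, HAND1 and ISL1). These are groups by detected transcripts and not cell types. The WT library had 732 SOX2 cells, 656 streak-marker cells, 132 extraembryonic-marker cells, 36 with both marker sets and 617 with none of them. The GATA3 KO library had 2947, 74, 445, 10 and 562.

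The cells with both marker sets were too few to place (CDKN1A 5.14 and 1.97 CPM and GDF15 1.29 and 0 CPM, from 8 and 1 and from 2 and 0 UMIs), and the orders that follow are over the other 4 groups. CDKN1A was lowest in SOX2 cells, at 6.13 CPM (5.31 to 7.04) and 6.08 CPM (5.66 to 6.52). It stood at 10.3 and 10.4 CPM in streak-marker cells, at 14.5 and 11.7 CPM in extraembryonic-marker cells and at 12.3 and 13.8 CPM in cells with none. The order SOX2 below the other 3 was the same in both libraries, and between the last 2 the counting intervals met. GDF15 was lowest in SOX2 cells too, at 1.25 and 2.55 CPM. It had 2.27 and 3.46 CPM in streak-marker cells, 5.31 and 11.4 CPM in extraembryonic-marker cells and 7.12 and 6.86 CPM in cells with none. The 3.46 CPM rested on 12 UMIs, with an interval (1.79 to 6.04) that included the level in SOX2 cells.

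FAS and BBC3 had another order, seen in the GATA3 KO library. FAS stood there at 3.56 CPM (3.24 to 3.90) in SOX2 cells and 1.28 CPM (0.83 to 1.88) in extraembryonic-marker cells, and BBC3 at 29.4 and 19.0 CPM. In the WT library the same groups had 1.37 and 1.06 CPM of FAS and 18.8 and 18.0 CPM of BBC3. RRM2B was lower in extraembryonic-marker cells than in SOX2 cells of both libraries (31.8 against 41.9 CPM and 24.9 against 33.8 CPM). SESN1 was as well (10.1 against 15.2 CPM and 12.0 against 14.5 CPM), while MDM2 was lowest in SOX2 cells (36.3 and 36.6 CPM) and highest in cells with none (49.3 and 48.5 CPM). In streak-marker cells of the GATA3 KO library MDM2 was close to its level in SOX2 cells, at 37.8 CPM (31.6 to 44.8).

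Against SOX2 cells, CDKN1A and GDF15 were past 1.5-fold higher in extraembryonic-marker cells and in cells with none, in both libraries. These 2 of 9 compare with 8.45% and 8.09% of all genes for the extraembryonic-marker cells and with 2.99% and 3.01% for the cells with none. In streak-marker cells 1 member (CDKN1A) was past 1.5-fold higher in the WT library and 2 (CDKN1A and SESN1) in the GATA3 KO library, against 5.63% and 5.31%. FAS and BBC3 were the 2 members lower in extraembryonic-marker cells of the GATA3 KO library, against 13.6% of all genes lower. FAS was also the 1 member lower in streak-marker cells there, against 10.5%, but with 6 UMIs (log2 ratio -0.74, -1.49 to 0.07), and it was within 1.5-fold with 1 or more marker UMIs (-0.37) and over all deposited cells (-0.57).

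**Figure D5:**
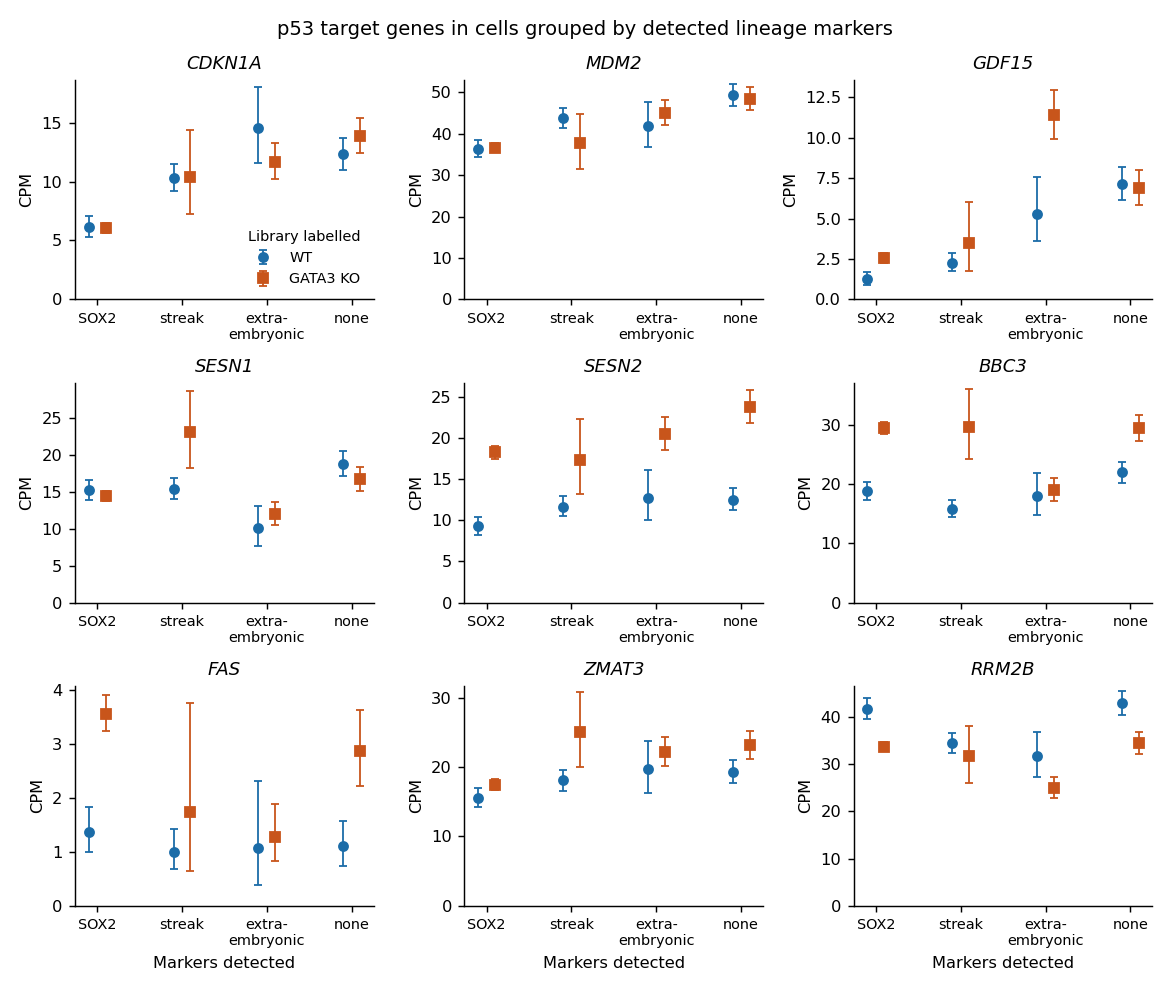
CPM of each gene in cells with SOX2, streak markers, extraembryonic markers or none of them at 2 or more UMIs after thinning, in the WT library (circles; 732, 656, 132 and 617 cells) and the GATA3 KO library (squares; 2947, 74, 445 and 562 cells), with exact Poisson 95% intervals. CDKN1A is lowest in SOX2 cells of both libraries at nearly the same level, while SESN2 is higher in all 4 groups of the GATA3 KO library.

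The libraries differed in their makeup by these markers, and its part in the differences of the members was not tested. SOX2 cells made up 33.7% of the thinned cells of the WT library and 73.0% of those of the GATA3 KO library. In SOX2 cells the log2 ratio of CDKN1A between the libraries was -0.01 (-0.21 to 0.19), in streak-marker cells 0.01 (-0.48 to 0.47) and in cells with none 0.16 (-0.05 to 0.37). In extraembryonic-marker cells it was -0.29 (-0.64 to 0.06), about as large as over all kept cells, and in the few cells with both marker sets -1.05 (-2.69 to 1.26). With the marker groups of the GATA3 KO library weighted to their shares in the WT library, a setting added after the data were seen, the ratio of CDKN1A was 0.03 in place of -0.27 over the same cells. SESN1 went from -0.11 to 0.14, ZMAT3 from 0.10 to 0.30 and GDF15 from 0.21 to 0.31. GDF15, close to equal over all cells, had log2 ratios of 0.66 (0.37 to 0.93) in SOX2 cells and 0.97 (0.49 to 1.47) in extraembryonic-marker cells, but -0.05 (-0.32 to 0.22) in cells with none. A large part of the GDF15 UMIs lay in few cells, and these intervals leave that spread out.

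SESN2 differed within each of the 4 larger marker groups, whereas FAS, BBC3 and RRM2B had groups in which the interval included 0. SESN2 had log2 ratios of 0.91 (0.75 to 1.07) in SOX2 cells, 0.54 (0.14 to 0.91) in streak-marker cells, 0.64 (0.30 to 1.00) in extraembryonic-marker cells and 0.88 (0.69 to 1.06) in cells with none. FAS had 0.94 (0.66 to 1.21) in SOX2 cells and 0.88 (0.48 to 1.25) in cells with none, but 0.45 (-0.36 to 1.28) in streak-marker cells and 0.14 (-0.62 to 0.81) in extraembryonic-marker cells. BBC3 had 0.62 (0.51 to 0.74) in SOX2 cells, 0.87 (0.56 to 1.16) in streak-marker cells and 0.40 (0.25 to 0.56) in cells with none. In extraembryonic-marker cells BBC3 had 0.07 (-0.23 to 0.38). RRM2B lay between -0.34 and -0.12 in the 4 groups, with an interval of -0.40 to 0.16 in streak-marker cells. Weighted as above, the ratios of SESN2, BBC3, FAS and RRM2B were 0.77, 0.59, 0.76 and -0.25.

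The cells left out by the limits held 56.1% of all CDKN1A UMIs of the WT library and 38.3% of those of the GATA3 KO library, against 50.3% and 38.3% of the UMIs of all genes. In cells with more than 7500 detected genes CDKN1A stood at 12.3 and 7.88 CPM, a log2 ratio of -0.58 (-0.70 to -0.47), and over all deposited cells the ratio was -0.44 (-0.52 to -0.37). SESN2, BBC3 and FAS had ratios of 0.64, 0.62 and 0.72 in the cells of many genes. GDF15 and ZMAT3, slightly higher in the GATA3 KO library among kept cells, had -0.13 and -0.11 there. In cells over 25% mitochondrial UMIs, GDF15 reached 11.9 CPM (8.24 to 16.6) in the WT library and 5.99 CPM (4.10 to 8.46) in the GATA3 KO library. These came from 34 and 32 UMIs. As 1 kept cell of the WT library alone held 35 GDF15 UMIs, these values could rest on few cells.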

How the data were processed

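Per the labels and methods, the authors made 10x Genomics 3′ libraries, processed them with Cell Ranger 3.0.2 against GRCh38 and deposited raw UMI counts per gene and cell barcode. A UMI count samples the 3′ end, and overlapping genes can share reads. Both libraries (WT and GATA3 KO, 1 each, no replicates) were grouped by label. Cells beyond 7500 genes or 25% mitochondrial UMIs were left out, following the study. UMIs were summed per library or group of cells as CPM with exact Poisson intervals, shares had exact Clopper-Pearson intervals, and log2 ratios of CPM + 1 used the exact binomial interval of the pair of counts. Scripts used Python 3.11.15, scipy 1.17.1, scanpy 1.11.5 (Scrublet) and edgeR 4.0.16 (TMM factors) and were tested on simulated data. Scrublet called 1 and 2 doublets, too few for a caller that works, so doublets were left in and the highest scores removed only as an alternative. Named genes were the 9 members, MDM4, list genes past 1.5-fold with at least 20 CPM (at most 6 per list), and the 6 highest and 6 lowest correlates of CDKN1A, and some genes that this rule names are not reported here. Members and lists were chosen with earlier results of these data known. S-phase and G2/M lists were those of Seurat. Promoter starts came from RefSeq and transcripts from GENCODE v44, both on GRCh38.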

Additional observations from a re-analysis of the deposited data

How the results depend on the processing

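Depth limits FAS and the cells with 3 or more CDKN1A UMIs, of which there were 7 and 8; no cell had 5 or more after thinning, so that planned setting gave no value. No paired analysis was possible because each group is 1 library. Members past 1.5-fold higher numbered 0 at 20 CPM, 1 at 5 CPM, 1 over all deposited cells, 1 with a pseudocount of 0.1 CPM, and 2 with no minimum or a minimum of 1 CPM, while 0 were lower at each. Members 1.5-fold lower in the highest cell-cycle quartile numbered 4 and 3; by the G2/M list alone 7 in the WT library, and by the S-phase list alone 0 in either. Members 1.5-fold higher in streak-marker than in SOX2 cells numbered 1 in the WT library, but 0 with 1 or more marker UMIs, 2 with 3 or more, 0 over all deposited cells and 0 with another seed, and in the GATA3 KO library 2, but 0 with 1 or more marker UMIs and 0 over all deposited cells. As a mean of per-cell CPM, the log2 ratio was -0.27 for GDF15, 0.06 for MDM2, -0.10 for RRM2B, -0.03 for SESN1, 0.27 for ZMAT3 and 0.71 for BBC3, and with a pseudocount of 0.1 CPM that of FAS was 1.37. TMM factors moved the median of all genes from 0.07 to 0.06 and no call. The other 84 summaries stayed within 1.5 times of their values.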
